A study of Homo sapiens with 14 samples.

Results

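The genes described here are 59 interferon-stimulated genes and components of interferon signalling, chosen by name. The deposited table of m6A sites held 55 of them, with 1545 of its 407343 sites, and the table as a whole covered 13744 genes. The chemokine genes CXCL10, CXCL11 and CCL5 and the effector gene IFI27 had no listed site and have no value. N6-methyladenosine (m6A) was measured by GLORI, in which a chemical step deaminates adenosine without the methyl mark so that it is sequenced as G, while m6A is still sequenced as A. A site's m6A level is therefore A as a percentage of A plus G reads. The lines, 6 in all, are human cancer lines kept with DMSO, the solvent control, for 24 h: A549 from lung carcinoma, OE21 from an oesophageal tumour, and CAOV3, COV644, EFO21 and SKOV3 from ovarian tumours. A further CAOV3 group received 1 µM STM3675 for 24 h, a compound given only by this code, in a series about inhibitors of METTL3, the enzyme that writes most m6A in messenger RNA. Each of these 7 groups had 2 libraries, 14 in all, and each line is a single established line. The labels do not say whether the 2 libraries of a group were separate cultures, so p-values speak of the spread between these libraries, which may be technical.

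Type I interferons bind a receptor made of IFNAR1 and IFNAR2, which carries the kinases TYK2 and JAK1. The kinases activate STAT2, which acts with IRF9 to switch on genes whose promoters hold an interferon-stimulated response element (ISRE). The products of these genes restrict viruses in many ways, and a number of tumour cell lines express some of them without added interferon. METTL3 methylates adenosine in the motif DRACH (D is A, G or T/U, R is A or G, H is A, C or T/U), and m6A in messenger RNA is known to bear on its stability and translation.

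The values below are of 2 kinds. The m6A level of a gene is taken over its DRACH sites with at least 20 reads in every library compared. Coverage is the number of A and G reads summed over all listed sites of a gene, scaled to the library total with TMM factors (CPM in edgeR's terms, taken over the 4 CAOV3 libraries or the 12 DMSO libraries, so values of a library differ slightly between the comparisons), and stands in for the amount of transcript. In lysates of whole cultures, fewer cells with a transcript and less transcript per cell cannot be told apart. A site entered the table only if a DMSO library had at least 20 reads and a level of at least 25% there, so transcripts or sites seen with STM3675 alone cannot appear. The listed sites of these genes included 632 in DRACH, and CAOV3 libraries alone brought in 243 of the 1545. Libraries had 14047302 to 28663588 reads at listed sites.

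Of 5 epithelial markers all were listed, and their summed coverage was 119 to 123 CPM in SKOV3 and 404 to 2223 CPM in the libraries of the other lines. The squamous markers TP63, KRT5, KRT6A and SOX2 summed to 7549 and 7607 CPM in OE21 and to no more than 54.7 CPM elsewhere. For A549, the lung markers SFTPB, SFTPC and NAPSA had no listed site and NKX2-1 was at 0.082 and 0.136 CPM, below its mean of 19.9 CPM in COV644 and 12.2 CPM in OE21. Of 4 ovarian lineage markers PAX8, WT1 and MECOM were listed and MUC16 was not, and these 3 summed to a mean of 782 CPM in SKOV3, 524 CPM in EFO21, 106 CPM in COV644, 81.2 CPM in CAOV3, 55.5 CPM in OE21 and 12.1 CPM in A549. Of the leukocyte markers, CD14 was listed, with a mean of 34.9 CPM in CAOV3, 12.2 CPM in A549 and at most 4.75 CPM in the other lines, while PTPRC, CD3E and LYZ had no listed site.

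With STM3675, reads over interferon genes increased in CAOV3. Coverage rose for 42 of the 54 genes with enough reads, that is 77.8%, where 27.5% of all 12494 tested genes rose, and fell for 2 (3.7%), where 26.4% of all genes fell (edgeR's quasi-likelihood test, Benjamini-Hochberg adjusted p under 0.05). The median log2 fold change was 0.67 for the 54 genes and -0.02 for all genes. It was at least 1 for 19 of them and at least 2 for 4. Both STM3675 libraries lay above or below both DMSO libraries for 50 of 54 genes (92.6%), and for 77.4% of all genes. MX2, with at most 2 reads in a CAOV3 DMSO library, had too few reads for the test.

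The element named above can be shown in the promoters of some of these genes, both among those that rose and among the others. The RefSeq promoter table (GRCh38.p14, 250 bases before to 50 bases after the transcript start) held 46 of the 59 genes by symbol. An ISRE core, searched on either strand as GAAA and GAAA with 2 bases of any kind between them, stood in 27 of these 46 windows (58.7%) and in 996 of all 27305 (3.65%). The core of the gamma-activated site, TTCNNNGAA, stood in 11 of 46 (23.9%) and in 2152 of all (7.88%), and 4 of the 46 windows held both. The genes were chosen by name as interferon-stimulated or as parts of the pathway, so these shares are not independent of the choice. The ISRE core was found in 20 of the 33 promoters whose gene rose in coverage (60.6%). It was found in 5 of the 10 whose gene did not pass or fell (50%). Of the 16 with a log2 fold change of at least 1, 11 held it, and SAMD9L, RSAD2, PARP9, CMPK2 and XAF1 had 0 cores in the window. The core was in all 3 IFIT promoters in the table, in 0 of 4 promoters of receptors and kinases and in 0 of 3 of transcription factors. The 4 stretches below belong to the genes with the largest rise among those with a core well inside the 250 bases, and are given on the gene's strand with ISRE cores in capitals. A match is a run of letters, not a measured binding site.
IFI44L, chr1:78620340-78620419, plus strand: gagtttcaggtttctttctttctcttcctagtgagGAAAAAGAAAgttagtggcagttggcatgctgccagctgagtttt
IFIT3, chr10:89327840-89327919, plus strand: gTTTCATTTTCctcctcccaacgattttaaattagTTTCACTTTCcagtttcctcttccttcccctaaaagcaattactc
IFIT1, chr10:89392485-89392564, plus strand: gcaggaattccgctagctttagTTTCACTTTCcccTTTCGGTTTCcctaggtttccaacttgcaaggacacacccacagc
SAMD9, chr7:93118071-93118150, minus strand: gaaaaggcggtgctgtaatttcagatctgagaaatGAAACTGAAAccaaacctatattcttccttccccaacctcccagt
In IFI44L the core shown begins 73 bases before the transcript start, and in IFIT1 the nearer of a pair of cores begins 103 bases before it.

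At the start of the pathway, 1 of 5 receptor and kinase genes rose and 2 fell. TYK2 had 189 and 178 CPM with DMSO and 147 and 150 CPM with STM3675 (log2 fold change -0.30 ± 0.07 SE, adjusted p = 0.00533). JAK2, a kinase of other cytokine receptors, went from 6.8 and 6.22 CPM to 4.49 and 4.06 CPM (-0.60 ± 0.20, adjusted p = 0.026). The groups did not overlap for either kinase. IFNAR1 had 141 and 139 CPM and then 121 and 133 CPM, and JAK1 213 and 187 CPM and then 185 and 180 CPM, and neither passed. IFNAR2 rose from 67.3 and 58.8 CPM to 77.9 and 79.5 CPM (0.32 ± 0.09, adjusted p = 0.0109), but with the reads of 1 site per gene its value was -0.12 (adjusted p = 0.778). These small changes hung on single libraries: without STM3675 replicate 1 the adjusted p was 0.111 for TYK2, 0.104 for JAK2 and 0.0821 for IFNAR2, and without replicate 2 it was 0.0852, 0.169 and 0.113. Outside DRACH alone TYK2 was at -0.17 (adjusted p = 0.0949), and JAK2 missed the threshold with DESeq2 (adjusted p = 0.0771). Without DMSO replicate 1 JAK2 was at 0.0579, and without DMSO replicate 2 IFNAR1 (-0.15, adjusted p = 0.0286) and JAK1 (-0.23, adjusted p = 0.000298) fell.

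All 4 transcription factors rose, by 1.30- to 1.64-fold. IRF1, an activator of interferon-stimulated genes, had 82.9 and 77.0 CPM with DMSO and 133 and 129 CPM with STM3675 (0.72 ± 0.08, adjusted p = 4.24e-05). IRF9, the DNA-binding partner of STAT2, had 58.2 and 70.0 CPM and then 82.6 and 84.7 CPM (0.38 ± 0.10, adjusted p = 0.00696). Every STM3675 library was above every DMSO library for these genes. Leaving out STM3675 replicate 2 ended the calls of IRF9 (0.37, adjusted p = 0.0727) and of IRF2, which antagonises IRF1 (0.37, adjusted p = 0.0548).

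The genes of the IFIT proteins, which bind foreign RNA, all rose in coverage, 4 of 4. The median log2 fold change was 1.82, the highest of the role groups. IFIT3 had 79.3 and 80.2 CPM with DMSO and 321 and 326 CPM with STM3675, 4.06-fold more (2.02 ± 0.07, adjusted p = 1.66e-07). IFIT1 went from 104 and 105 CPM to 359 and 352 CPM, and IFIT5 from 115 and 107 CPM to 412 and 394 CPM. IFIT2, with the smallest change of the family, had 69.6 and 72.3 CPM and then 199 and 191 CPM (1.46 ± 0.07, adjusted p = 5.87e-07). For each IFIT gene the gap between the groups was many times the spread within them.

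ISG15 is a ubiquitin-like modifier, and 5 of the 6 genes of its conjugation system rose. ISG15 itself had 76.7 and 89.3 CPM with DMSO and 163 and 160 CPM with STM3675 (0.96 ± 0.09, adjusted p = 1.42e-05). UBA7, its activating enzyme, had 24.9 and 25.8 CPM and then 29.2 and 26.2 CPM and did not pass (0.13 ± 0.11, adjusted p = 0.345). The conjugating enzyme UBE2L6, the ligase HERC5, its relative HERC6 and the deconjugating protease USP18 rose by 1.39- to 1.92-fold. HERC5 was the least stable of them, with an adjusted p of 0.0717 and 0.0900 without STM3675 replicate 1 and 2.

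Genes for ADP-ribosylation all rose, 5 of 5. DTX3L, a ubiquitin ligase that forms a complex with PARP9, had 132 and 108 CPM with DMSO and 403 and 365 CPM with STM3675 (1.68 ± 0.10, adjusted p = 1.27e-06). PARP9 had 169 and 178 CPM and then 566 and 535 CPM (1.67 ± 0.07, adjusted p = 3.17e-07), so that both partners rose by about the same factor. PARP12 changed least, from 56.9 and 62.9 CPM to 94.3 and 99.5 CPM (0.69 ± 0.08, adjusted p = 9.04e-05).

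All 4 genes for antiviral membrane proteins rose, but those for IFITM1, IFITM2 and IFITM3 are related in sequence and some reads may be split among them. IFITM1 had 285 and 471 CPM with DMSO and 750 and 742 CPM with STM3675 (0.98 ± 0.17, adjusted p = 0.00101), with DMSO libraries further apart than those of the other genes named here. BST2, which tethers budding virus, had 172 and 222 CPM and then 309 and 311 CPM (0.65 ± 0.11, adjusted p = 0.000562). IFITM2 had the smallest change (0.39 ± 0.13, adjusted p = 0.0235), and its adjusted p was 0.269 and 0.0585 without STM3675 replicate 1 and 2.

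Among GTPases, MX1 rose from 124 and 120 CPM to 321 and 315 CPM (1.38 ± 0.07, adjusted p = 5.76e-07), and GBP1 from 27.5 and 23.6 CPM to 57.2 and 49.8 CPM. GBP2, with 34.6 and 29.1 CPM and then 30.3 and 28.6 CPM, did not pass, and its groups overlapped. Of 7 TRIM and nuclear body genes 6 rose. TRIM21, an intracellular receptor for antibodies, went from 42.8 and 45.9 CPM to 151 and 153 CPM (1.77 ± 0.08, adjusted p = 3.67e-07), and with 1 site per gene its value was 0.89 (adjusted p = 0.0109). TRIM5, a restriction factor of retroviruses, had 60.2 and 52.7 CPM and then 65.2 and 65.8 CPM (0.21 ± 0.09, adjusted p = 0.0653), and passed without DMSO replicate 1 (0.32, adjusted p = 0.000291).

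Of the 16 other effectors 11 rose, with the 2 largest folds of all among them, and 5 did not pass. IFI44L had 12.1 and 13.4 CPM with DMSO and 64.9 and 58.8 CPM with STM3675, 4.84-fold more and the largest fold among the 54 genes (2.28 ± 0.11, adjusted p = 5e-07). SAMD9L, an antiviral and growth-restricting protein, had 19.7 and 19.4 CPM and then 91.4 and 74.8 CPM (2.09 ± 0.11, adjusted p = 7.35e-07). RSAD2, the gene of viperin, was low, with 3.45 and 1.71 CPM and then 10.6 and 10.1 CPM (2.00 ± 0.27, adjusted p = 0.000175). CMPK2, a mitochondrial nucleotide kinase encoded next to RSAD2, rose with a log2 fold change of 1.64 and SAMD9 with one of 1.52. NMI, EPSTI1, IFI16, DDX60L and DDX60 did not pass, with log2 fold changes from -0.11 to 0.16, and DDX60 did without DMSO replicate 1 (0.30, adjusted p = 0.0299). ISG20, an exonuclease, passed narrowly (0.35 ± 0.13, adjusted p = 0.0416), and without DMSO replicate 1 or STM3675 replicate 1 or 2 its adjusted p was 0.127 to 0.193. IFI35 was at 0.0845 without STM3675 replicate 1.

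**Figure D1:**
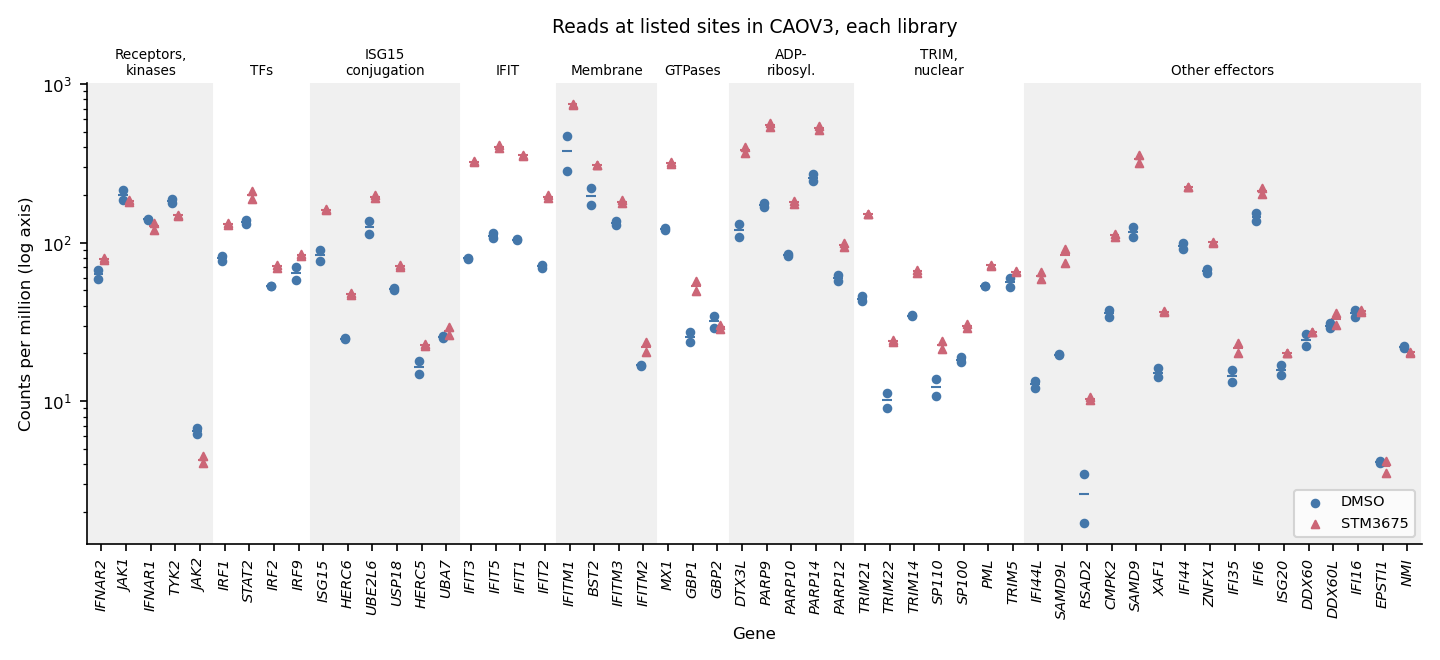
Coverage of the 54 tested genes in CAOV3 in CPM (log axis), by role; circles are DMSO libraries, triangles STM3675 libraries and short lines the means of 2 libraries. IFIT3 stands near 80 CPM with DMSO and above 320 CPM with STM3675, while the kinases TYK2 and JAK2 lie lower with STM3675.

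The calls rest on reads counted at several sites of a gene. With the reads of 1 site per gene, 24 of 52 genes rose, against 10.9% of all genes. Among the genes that then missed the threshold were BST2 (0.55, adjusted p = 0.125), STAT2 (0.31, adjusted p = 0.269), PML (0.50, adjusted p = 0.136), USP18 (0.35, adjusted p = 0.178) and TRIM14 (0.24, adjusted p = 0.469). Coverage from sites outside DRACH alone rose for 40 of 53, against 25.3% of all genes, an alternative chosen after the data were seen. Epithelial markers summed to 984 and 991 CPM with DMSO and 1074 and 1033 CPM with STM3675, but moved in both directions. CDH1 rose from 180 and 147 CPM to 306 and 298 CPM, KRT18 fell from 129 and 131 CPM to 87.9 and 81.4 CPM, and 3 did not pass. The leukocyte markers were represented by CD14 alone, at 33.5 and 38.0 CPM and then 45.7 and 42.3 CPM. Of 4 fibroblast markers only COL1A1 was measured, at 94.2 and 78.8 CPM and then 40.1 and 44.8 CPM. What part these have in the rise was not tested.

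A second list of 52 genes of the same pathway, among them RNA sensors and further interferon-stimulated genes, had 45 measured, of which 23 rose and 3 fell (27.5% and 26.4% of all genes). The oligoadenylate synthetases OAS2 (20.3 and 21.0 CPM to 144 and 133 CPM, log2 fold change 2.74) and OAS1 (21.1 and 25.8 CPM to 101 and 95.6 CPM, 2.07) had the largest folds, followed by APOL6 (1.79). The RNA sensor gene DDX58 rose with a log2 fold change of 1.33 and IFIH1 with one of 1.07. B2M, PTPN1 and PTPN11 fell.

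When all 14 libraries were scaled together, both STM3675 libraries lay above all 12 DMSO libraries for 21 of the 54 genes (38.9%), and for 10% of all genes. For 6 of the 21, BST2, IFI44, IFITM1, UBA7, UBE2L6 and USP18, the highest DMSO library was itself of CAOV3. IFIT5 had 398 and 379 CPM with STM3675 on this scale and 182.5 CPM in the highest DMSO library, in COV644. TRIM21 had 146 and 147 CPM, against 41.5 and 44.4 CPM in CAOV3 with DMSO and 118 CPM in the highest DMSO library, in SKOV3.

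The m6A of the same transcripts fell. In CAOV3, 45 of the 55 genes had a DRACH site with 20 reads in all 4 libraries, and 44 of these 45 (97.8%) lost m6A, where 91.1% of all 10209 measured genes did (quasi-binomial model, adjusted p under 0.05). No gene of the 45 rose (0.0294% of all genes did; at an unadjusted p under 0.05 and with limma on arcsine-transformed levels none of the 45 rose either). Their median level was 46.6% with DMSO and 9.23% with STM3675, against 44.5% and 9.45% over all genes. In the STM3675 libraries the median level of sites outside DRACH, a measure of unconverted adenosine, was 8.89% and 8.85%. Gene levels of about this size with STM3675 cannot be told apart from unconverted adenosine. The median difference was -36.3 percentage points, near the -35.3 points of all genes, so the fall in these genes was of the size seen across the transcriptome. DMSO libraries lay above STM3675 libraries for 44 of 45 genes, and for 94.6% of all genes.

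Among receptors and kinases, JAK1 went from 47.1% and 46.1% to 7.68% and 8.55% over 11 sites (adjusted p = 6.49e-18). IFNAR2 kept the most in this group, with 51.9% and 54.8% and then 19.9% and 22.8% over 10 sites (adjusted p = 6.33e-10). IRF2 had the largest fall of the transcription factors, from 53.7% and 51.7% to 7.79% and 9.01%. IRF9 had 17.1% and 22.9% and then 11.3% and 12.8% over 3 sites (adjusted p = 0.0113), and lost its call without DMSO replicate 2 (-4.98 points, adjusted p = 0.127) or STM3675 replicate 1 (-7.13 points, adjusted p = 0.102).

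The IFIT transcripts were among the more methylated, with DMSO means of 52.5% to 67.9%. IFIT3 fell from 69.8% and 66.1% to 10.3% and 10.8% over 12 sites (adjusted p = 1.27e-17). IFIT5 began at a like level, 66.5% and 69.3%, and kept 18.9% and 19.2% over 15 sites (adjusted p = 3.27e-16). In the ADP-ribosylation group PARP9 (64.5% and 64.8% to 12.4% and 11.6%) fell most and PARP14 (48.6% and 45.6% to 10.7% and 10.8%) least. The DMSO libraries of IFIT2 were further apart, at 56.4% and 68.0%, but in all IFIT and ADP-ribosylation genes the groups lay apart by over 30 points.

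USP18 was the exception. Its 2 sites were low with DMSO, 13.7% and 17.6%, and at 10.8% and 16.5% with STM3675, so that the groups overlapped (-2.02 points, adjusted p = 0.5). The sign of this difference turned with a minimum of 50 reads (1.96 points) and without STM3675 replicate 1 (0.836 points). UBE2L6, in the same system, went from 58.6% and 61.5% to 11.3% and 9.22% over 6 sites.

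Other transcripts with little m6A included those of membrane proteins. BST2 had 23.6% and 23.4% with DMSO and 15% and 16.9% with STM3675 (adjusted p = 4.13e-06; -2.40 points, adjusted p = 0.0836, with the sites that another line also passed), and IFITM1 20.7% and 19.3% and then 6.72% and 6.19% (adjusted p = 2.87e-14). The effector SAMD9L had the highest level of the 45 genes and the largest fall, from 86.8% and 77.4% to 9.06% and 9.54% over 2 sites (adjusted p = 4.66e-10). IFI6 had a small fall for its level, from 39.3% and 38.9% to 21.4% and 21.7% over 2 sites (adjusted p = 1.41e-11). TRIM21 dropped from 78.0% and 74.2% to 9.83% and 9.44%, and PML, the scaffold of nuclear bodies, from 32.9% and 22.8% to 13.2% and 12.7% (adjusted p = 0.00151). MX1 dropped from 44.5% and 42.8% to 7.35% and 8.20%, and GBP2 from 24.3% and 24.0% to 7.91% and 8.13%.

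**Figure D2:**
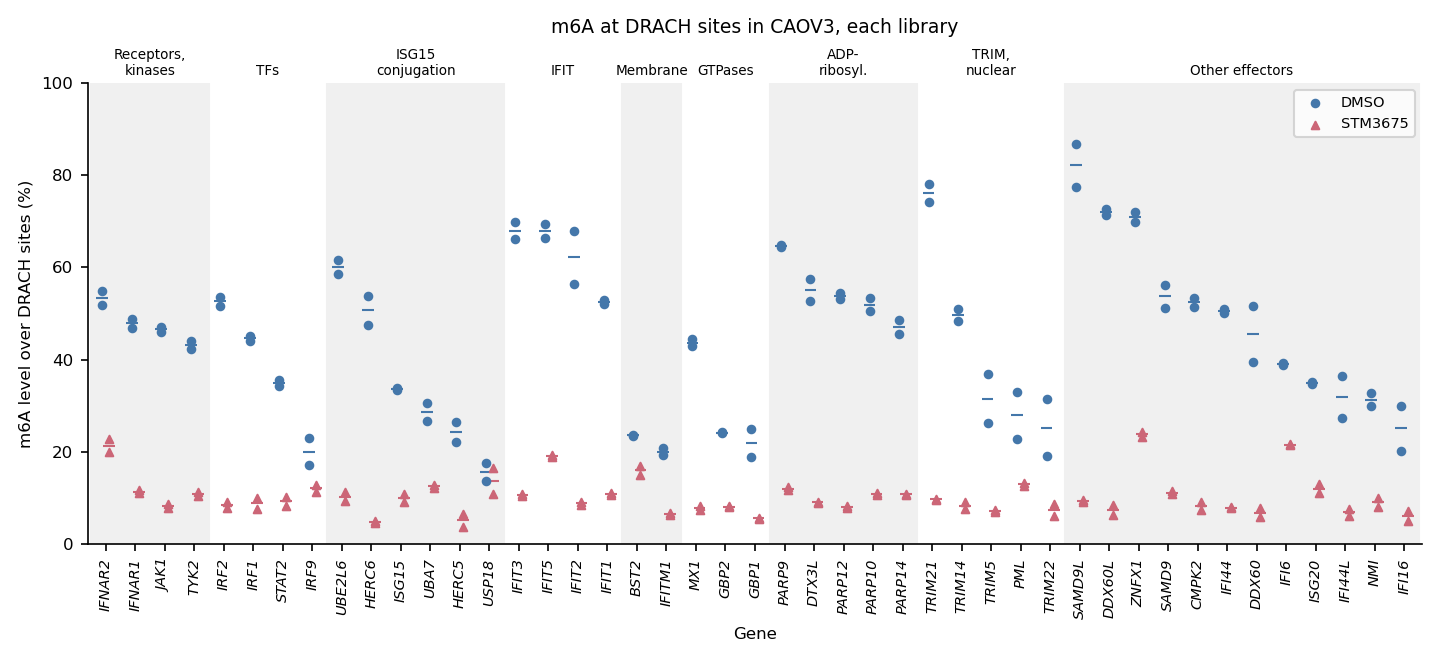
m6A level over DRACH sites (percent) of the 45 measured genes in CAOV3, by role; circles are DMSO libraries, triangles STM3675 libraries and short lines means of 2. The DMSO means run from 15.7% in USP18 to 82.1% in SAMD9L, and the STM3675 means from 4.79% in HERC6 to 23.8% in ZNFX1.

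Loss of m6A and gain of coverage did not occur in fixed proportion. Over the 45 genes with both values, the DMSO level and the log2 fold change of coverage had a Spearman rho of 0.436 and a Pearson r of 0.446. This is a description across genes that share the same libraries. TYK2 and JAK1 lost 32.2 and 38.4 points of m6A without a rise in coverage. USP18 rose 1.39-fold in coverage without a detectable loss of m6A. Its DMSO level of 13.7% and 17.6% lay near the median outside DRACH in these libraries, 10.8% and 11.1%. Little loss could therefore have been seen in USP18. Of 9 genes with coverage but no tested DRACH site, 7 rose (median log2 fold change 0.59), against 35 of the 45 with one (0.69). Untested does not mean free of m6A. Of the 9, only IFI35, IFITM2 and IFITM3 had no listed DRACH site, and the others had such sites with too few reads in CAOV3. RSAD2, for example, had 44.6% and 41.3% over 11 sites in COV644. Of the second list of pathway genes 37 of 42 lost m6A, a share near the 91.1% of all genes, and IRF7, PTPN6, STAT3 and TBK1 were among those that did not pass.

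Single sites showed where the m6A lay. Of 353 tested DRACH sites in these genes 276 fell (78.2%; 73.9% of all tested DRACH sites did) and 0 rose (0.048%; 1 did at an unadjusted p under 0.05, 0 with limma, and 1 at a minimum of 50 reads or over sites that passed in another line). The mean level over the 353 sites was 46.4% and 46.8% with DMSO and 11.2% and 11.3% with STM3675. All 136 sites at 50% or more with DMSO fell, as did 99.9% of such sites in all genes. The last exon held 228 of the sites, with a mean of 51.1% and then 11.1%, and internal exons held 121, with 39.3% and then 11.4%. By motif, the 67 GGACT sites averaged 63.8% and then 15%, the 37 GAACT sites 55.8% and then 11.2%, and the 11 AGACC sites 21.5% and then 8.62%. Outside DRACH, 28 of 489 sites fell (5.73%; 7.87% of all such sites) and 5 rose (0.493% of all), and their mean went from 12.2% and 12.4% to 9.10% and 8.78%.

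The largest falls, 1 per gene and with 50 reads in every library, came from the last exons of 12 genes, in the coordinates of the deposited table (GRCh38, each written with its 5-base motif, the adenosine in the middle). The IFIT2 site at chromosome 10, position 89307643, GAACT, went from 93.3% and 95.5% to 8.73% and 8.76% (adjusted p = 2.77e-109, 134 to 653 reads per library). The IFIT5 site at chromosome 10, position 89417349, AGACT, went from 100% and 98.9% to 16.9% and 12.2%. In IFIT3 the site at chromosome 10, position 89339441, GAACT, went from 94.5% and 100% to 14.2% and 14.3%, and in IFIT1 that at position 89403690, GAACT, from 100% and 99.3% to 20.9% and 19.9%. All 4 IFIT genes had such a site, at over 93% in both DMSO libraries. PARP9 (chromosome 3, position 122528471, minus strand, GGACA) went from 95.7% and 92.0% to 7.59% and 10.6%, and UBE2L6 (chromosome 11, position 57552297, minus strand, GGACT) from 98.2% and 98.6% to 15.2% and 13.5%. JAK1 (chromosome 1, position 64834380, minus strand, GGACT), whose coverage did not rise, went from 88.5% and 91.3% to 10.4% and 14.6%. The sites of TRIM21, PARP12, MX1, SAMD9 and IRF1 fell by 76.8 to 84.2 points.

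A few sites kept a larger part of their m6A. These were singled out after their values were seen. The IFNAR2 site at chromosome 21, position 33262975, GGACT, had 94.3% and 97.0% with DMSO and 68.3% and 69.6% with STM3675 (33 to 63 reads, adjusted p = 0.00115). With 1 library left out its adjusted p reached 0.0744 (without STM3675 replicate 1), 0.0653 (without DMSO replicate 2) and 0.0581 (without STM3675 replicate 2). A second IFNAR2 site, at position 33263229, GGACT, in the same last exon had 94.1% and 100% and then 56.5% and 56.3%. In ZNFX1, a helicase that senses viral RNA, the site at chromosome 20, position 49248705, minus strand, GGACT, had 97.4% and 96.7% and then 66.2% and 69.8% (adjusted p = 0.000211, and 0.0566 without STM3675 replicate 1). IFIT5 held both kinds: at position 89418480, AGACT, 100% and 98.7% became 48.5% and 51.6%, while the AGACT site at 89417349 above fell below 17% in both libraries. Of the 52 sites at 90% or more with DMSO, 6 kept over 0.4 of their level (11.5%), against 9.52% of such sites in all genes.

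**Figure D3:**
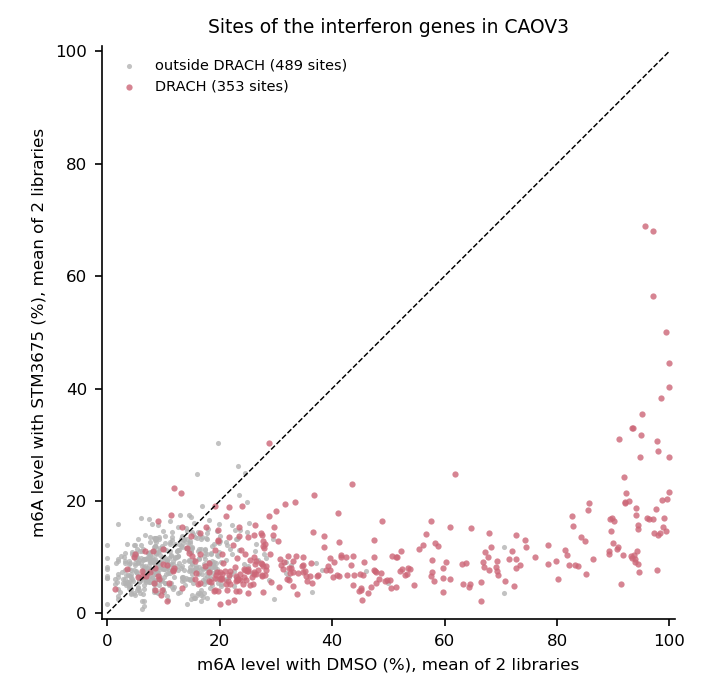
m6A level (percent) of each tested site of these genes in CAOV3 with DMSO (horizontal) and STM3675 (vertical), means of 2 libraries, for 353 DRACH sites and 489 others; the dashed line marks equal levels. DRACH sites lie along the bottom, and those kept at over 40% with STM3675 all began at 90% or more.

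The 13 DRACH sites with a DMSO mean of 25% or more that did not pass had DMSO means of 25.0% to 36.8%. In 12 of them the STM3675 mean was lower. The remaining one, in BST2 (chromosome 19, position 17403762, minus strand, GGACT), was well covered and nearly level, with 26.3% and 31.1% and then 29.6% and 30.8% (270 to 719 reads, adjusted p = 0.881). The sites that rose outside DRACH were in IFI16, DTX3L, IFITM3, STAT2 and IRF9. That of IFITM3 (chromosome 11, position 319906, TGATT) moved from 10.4% and 12.6% to 12.8% and 14.2%, and the other 4 had 7.92% to 13.5% with STM3675, where the median of all sites outside DRACH was 8.89% and 8.85% in these libraries.

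Across the 6 lines with DMSO, coverage of the interferon genes differed widely. All 55 genes differed among lines, as did 99.3% of all genes, so the lines are described by direction. A549 was below the mean of the other 5 lines for 43 of 55 genes (78.2%; 33.6% of all genes) and above it for 6 (37.9% of all genes). It was the lowest line for 35 genes (63.6%; 14% of all genes). COV644 was above the others for 39 (70.9%; 40.3% of all genes) and was the highest line for 22 (40%; 18.7% of all genes). CAOV3 was higher for 32 (40% of all genes) and EFO21 for 32 (38.7%). OE21 was higher for 27 (40%) and lower for 18 (37.5%), and SKOV3 higher for 22 (38.9%) and lower for 20 (33.8%), both nearer to the shares of all genes.

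Each line led in different genes. BST2 had 169 and 216 CPM in CAOV3, 88.6 and 86.1 CPM in EFO21, 57.2 and 74.2 CPM in COV644, 39.3 and 30.2 CPM in SKOV3, 1.16 and 1.76 CPM in OE21 and 0.246 and 0.226 CPM in A549, an order in which no neighbouring lines overlapped. IFITM1 was also highest in CAOV3, with 279 and 458 CPM, and had 0.369 and 0.815 CPM in A549. IFI44L was led by EFO21, with 56.3 and 57.9 CPM, followed by OE21 with 33.1 and 30.9 CPM and CAOV3 with 11.9 and 13.1 CPM. In A549 it had 0 and 2 reads, so that EFO21 was at least 441-fold higher, counted against a floor of 3 reads per library. IFI44 had 0.246 and 0.272 CPM in A549 and 98.0 and 88.4 CPM in CAOV3.

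COV644 had the highest coverage of RSAD2, ISG20 and MX2. A site needed 20 reads in a DMSO library to be listed, so genes with few reads elsewhere entered through the lines where they were high. The leading line and the folds of such genes, IFI44L above included, are not independent of that rule. RSAD2 had 36.5 and 39.5 CPM there, 6.90 and 6.92 CPM in OE21 and no more than 3.39 CPM in any other library. ISG20 had 198 and 247 CPM in COV644 and 0.638 to 16.6 CPM in the other lines. MX2 had 42.4 and 30.6 CPM in COV644 and 0 reads in both libraries of A549 and SKOV3, at least 282-fold and 236-fold less by the same floor. XAF1 and EPSTI1 were also at 0 reads in A549, and COV644 was at least 167-fold and 118-fold higher. SAMD9 had 1160 and 1006 CPM in COV644 and 20.0 and 14.9 CPM in A549. Of its DRACH sites 50 had 20 reads in COV644 and 1 in A549, so the same rule bears on its fold.

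The IFIT genes were highest in COV644 but had unlike ranges. IFIT3 had 196 and 204 CPM in COV644, 120 and 112 CPM in OE21, 92.2 and 86.5 CPM in EFO21, 77.7 and 78.1 CPM in CAOV3, 48.1 and 53.2 CPM in SKOV3 and 5.78 and 6.79 CPM in A549, with no overlap between neighbours. IFIT5 by contrast had 116 and 103 CPM in A549 and 182 CPM in both libraries of COV644, and its highest line mean was 2.40-fold its lowest. Most receptor and kinase genes were also flat: IFNAR2 had the narrowest range of all 55 genes, 1.85-fold, and JAK1, TYK2 and IFNAR1 ranged 2.59- to 2.92-fold, while JAK2 ranged 6.66-fold. JAK1 had its highest mean in A549, with 437 and 399.9 CPM, overlapping SKOV3 with 353 and 431 CPM. MX1 was highest in OE21, with 229 and 232 CPM, and had 1.39 and 1.81 CPM in A549.

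**Figure D4:**
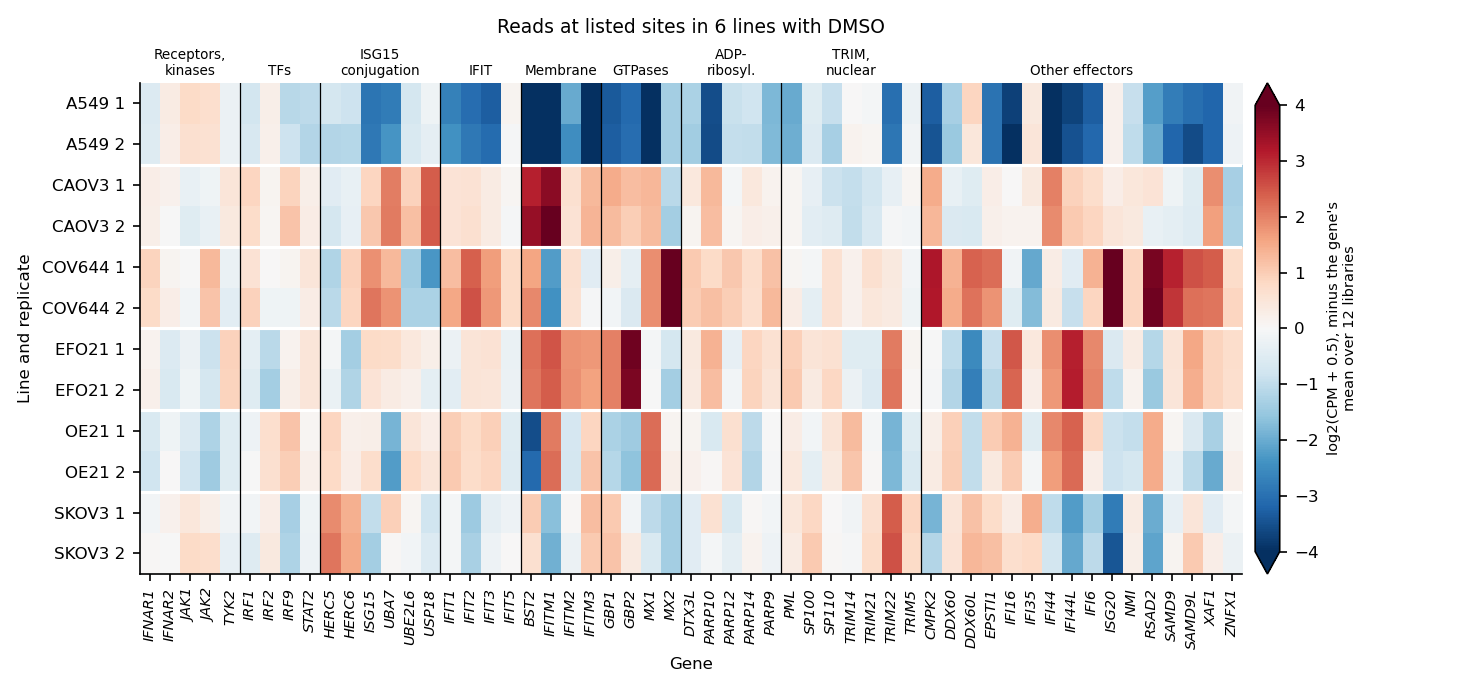
Coverage of the 55 listed genes in the 12 DMSO libraries as log2(CPM + 0.5) minus the gene's mean over the libraries, with colours limited at 4 either way; columns are genes by role, rows are lines and replicates. A549 is blue (below the gene's mean) in most columns, with JAK1, JAK2 and DDX60L among the exceptions, and COV644 is red (above it) in many.

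For m6A, 22 of these genes could be compared over the lines, those with a DRACH site at 20 reads in all 12 libraries, and 118 sites entered. Their levels differed for 14 of the 22 (63.6%), near the 58.4% of all 7428 measured genes. The range of the line means had a median of 12.4 points for the 22 genes and 12.1 points for all. CAOV3 was highest for 14 of 22 (63.6%; 53.6% of all genes) and OE21 lowest for 10 (45.5%; 44.6% of all genes), so that these genes ordered the lines much as other genes did. The median level of sites outside DRACH, a measure of unconverted adenosine, was 3.33% to 4.14% in the libraries of OE21 and COV644 and 10.3% to 15.8% in those of the other lines. With each library's median subtracted, 15 of the 22 differed by limma (57.2% of all genes): 10 of the 14 calls were kept, 4 were lost and 5 were gained. The levels and adjusted p-values of single genes below are without this subtraction, so differences from OE21 or COV644 include the difference in unconverted adenosine.

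TRIM14, an adaptor of mitochondrial antiviral signalling, had the widest range. It had 48.3% and 50.9% in CAOV3, 35.8% and 38.9% in A549, 38.2% and 33.5% in SKOV3, 27.1% and 33.9% in EFO21, 28.7% and 31.8% in COV644 and 23.2% and 25.2% in OE21 (adjusted p = 0.000139), with CAOV3 above and OE21 below all others and A549, SKOV3, EFO21 and COV644 overlapping in turn. PARP14 had 37.9% in both CAOV3 libraries and 25.1% and 19.3% in OE21 (adjusted p = 0.000908), and its levels in the other lines lay between 33.8% and 37.6%. STAT2 had 35.4% and 36.7% in CAOV3, 37.2% and 34.7% in SKOV3 and 22.6% and 19.4% in OE21 (adjusted p = 2.65e-05). DTX3L had 57.6% and 61.3% in CAOV3 and 43.7% and 45.2% in OE21 (adjusted p = 0.000787), and UBE2L6 61.4% and 64.0% in CAOV3 and 48.5% and 48.6% in EFO21 (adjusted p = 0.00116), with overlap between all its neighbouring lines. ISG15, at 1 site, had 56.9% and 36.4% in A549 and 29.6% and 25.0% in SKOV3 (adjusted p = 0.0420). IFNAR2, at 2 of its 23 listed DRACH sites, had 26.1% and 24.4% in CAOV3 and 8.42% and 9.21% in COV644 (adjusted p = 0.0286). Over the sites covered in each line by itself, IFNAR2 had 51.9% and 54.8% in CAOV3 (10 sites) and 55.8% and 62.2% in COV644 (15 sites). The 2 shared sites therefore do not stand for the whole transcript. NMI ranged from 42.9% and 56.5% in EFO21 to 31.0% and 27% in SKOV3 and did not pass (adjusted p = 0.135). The libraries of ISG15 in A549 were 20.5 points apart, further than the 19.3 points between its highest and lowest line means. Leaving out 1 library ended the call of ISG15 in 8 of 12 cases (adjusted p up to 0.141, without OE21 replicate 2). It did so for IFIT5 and IFNAR2 in 6 cases each (up to 0.253 and 0.113, both without EFO21 replicate 2) and for PARP12 in 5 (up to 0.101, without A549 replicate 2). TYK2 missed the threshold without either EFO21 library (0.0662 and 0.128) and ZNFX1 without CAOV3 replicate 1 (0.215). PARP9 passed without either COV644 library or EFO21 replicate 1, TRIM21 without CAOV3 or SKOV3 replicate 2 and TRIM5 without CAOV3 replicate 1 (adjusted p = 0.0175 to 0.0372).

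At the sites covered in all lines, other transcripts hardly varied. SAMD9, at 1 site, lay between 91.2% and 99.2% in all 12 libraries, TRIM21 between 71.6% and 81.1% and IFIT1 between 62.6% and 73.6%. Coverage of SAMD9 differed 62.0-fold and that of IFIT1 16.2-fold among the lines, folds on which the rule for listing sites also bears. None of the 3 levels passed the test among lines (adjusted p = 0.706, 0.0543 and 0.213). The SAMD9 site was near the ceiling and was 1 of 51 listed DRACH sites, and IFIT1 rested on 3 of 15. Over 50 sites SAMD9 had 48.6% in both COV644 libraries, so the whole transcripts were not compared. JAK1 had the deepest coverage, 1957 to 7672 reads per library over 9 sites, and its small range, from 37.2% and 39.0% in OE21 to 47.4% and 46.6% in CAOV3, passed (adjusted p = 0.000835).

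**Figure D5:**
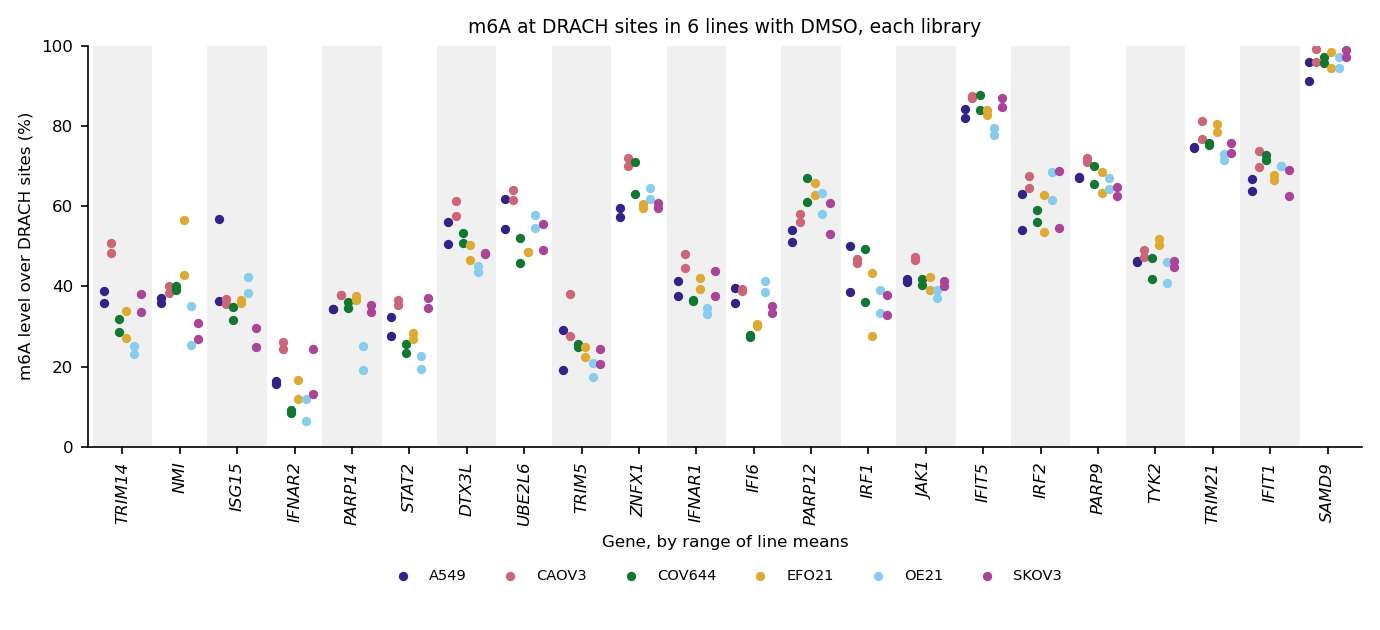
m6A level over DRACH sites (percent) in each of 12 DMSO libraries for the 22 genes measured in all lines, ordered by the range of line means; colours are lines and each point is 1 library. TRIM14 has the widest range of line means, 25.4 points, and SAMD9 the narrowest, 4.54 points.

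The sites behind these levels varied more than the gene sums, and are given without a test. The median range of line means was 14.8 points over the 118 sites and the extremes were 1.45 and 49.6 points. At the IFNAR1 site at chromosome 21, position 33358590, GGACT, in the last exon, the line means were 58.9% in SKOV3, 47.4% in CAOV3, 37.6% in A549, 32.8% in COV644, 28.3% in EFO21 and 9.32% in OE21, with as few as 23 reads in a library. Another site of the same exon, at position 33355560, GAACT, had at least 95.6% in every library. Of the 118 sites, 9 were at 90% or more in every one of the 12 libraries, among them the IFIT5 sites at 89418480 and 89418275, the ZNFX1 site at 49248705 and the IFIT1 site at 89403690. With STM3675 in CAOV3 the first 3 of these kept 0.504, 0.445 and 0.701 of their DMSO level, while that of IFIT1 fell to 20.9% and 19.9%.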

How the data were processed

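GLORI libraries of 6 cell lines were analysed from 1 deposited table of m6A sites. The authors deposited, per the file headers, a count of A plus G reads and an m6A fraction for each site and library, of which 8 columns of means or maxima over replicates were not used. The submitters' processing notes name cutadapt, STAR and the build GRCh38. Tool versions and the caller of sites: not given in the sources used here. A counts were recovered as fraction times count.

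m6A was tested per gene and per site with a quasi-binomial model whose dispersion was moderated by limma 3.58.1 (squeezeVar, floored at 1), and coverage with edgeR 4.0.16 (quasi-likelihood, TMM, mean of at least 20 summed reads) in R 4.3.3, fitted to all genes or sites with Benjamini-Hochberg adjustment and a threshold of 0.05. SE is that of the log2 fold change. Sites needed 20 reads in every library compared. Positions are as deposited, and whether they count from 0 or 1 is not stated.

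The 59 genes, the role groups, the second list and the markers were chosen with earlier results of these data known. From each role group the genes with the largest and smallest difference are named, for coverage also up to 12 rises and 12 falls, and for sites the 12 largest falls (1 per gene, 50 reads). Other genes and the retained sites were named after their values were seen. The models were tried on simulated data in the CAOV3 design, with few changed features among 185923 sites or 10209 genes, unlike the many falls seen here. Of 100 sites set to 0.5 or 0.25 of their level, 14 and 35 were recovered. Of 100 genes set to 0.5 or 0.75 of their m6A, 75 and 47 were recovered. For coverage, 99 of 100 rises of 2-fold and 89 of 100 of 1.5-fold were recovered. A site or gene that did not pass may therefore have changed. Alternatives were read minimums of 10 and 50, limma, DESeq2 1.42.0, RLE factors, other site choices, 1 site per gene, a replicate block and leaving out each library. Reads are not independent molecules, so counting error understates the true error. Python 3.11.15, pandas 2.3.3, scipy 1.17.1 and matplotlib 3.10.9 were used for tables and plots. Results on some list and marker genes are not reported here.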

Additional observations from a re-analysis of the deposited data

How the results depend on the processing

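At a minimum of 50 reads, 143 of 158 DRACH sites fell and 1 rose, and 9 of the 14 genes then tested differed in m6A among lines. Over sites that passed in another line 1 site rose and coverage fell for 1 gene, as it did for 1 with DESeq2 and with 1 site per gene, where 24 rose. Signs turned with 1 site per gene for IFI16 (-0.12) and IFNAR2 (-0.12), and for USP18 m6A with 50 reads or sites that passed in another line (1.96 points in both). The cause was not tested beyond the fewer sites and genes these settings hold.

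When single libraries were left out, coverage fell for 0 to 4 genes (0 without either STM3675 library, 1 without DMSO replicate 1, 4 without DMSO replicate 2) and rose for 36 to 43. m6A fell in 43 to 46 genes and 195 to 238 sites (without STM3675 replicate 1, 81 of 276 site calls were lost), and differed among lines in 9 to 13 genes, with 9 only without EFO21 replicate 2. The ranges were -0.23 to 0.025 for EPSTI1, -0.23 to 0.026 for GBP2 and -0.012 to 0.13 for IFI16, all log2 fold changes of coverage, and -4.87 to 0.836 points for the m6A of USP18. Of BST2, the m6A loss was -2.40 points over sites that passed in another line (adjusted p = 0.0836). Leaving a group with 1 library assumes that it varies like the others.

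The replicate numbers do not pair the libraries: same-numbered deviations in CAOV3 correlated at -0.05 for coverage and -0.03 for m6A, and over 15 pairs of lines at -0.35 to 0.36 and -0.17 to 0.22. With a replicate block, 44 genes and 236 sites fell in m6A, 42 genes rose and 2 fell in coverage, and 14 and 55 genes differed among lines in m6A and coverage. The other settings gave 36 to 47 genes with falling m6A, 238 to 331 sites, 39 to 42 genes with rising coverage and 11 to 15 genes that differed in m6A among lines. The number of genes and sites tested changed with the setting, so these counts are not shares. The 36 genes were those at a minimum of 50 reads, where 37 genes were tested and none of their calls was lost.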
